A study of Homo sapiens with 6 samples.

Results

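The UDP-sugar synthesis genes GALK1, GALT, GALK2, PGM1, UGP2, UGDH and UXS1 were described in RKO, a cell line established from a human colon carcinoma. They were chosen by their place in the routes to UDP-galactose, UDP-glucuronate and UDP-xylose, and their probe sets were found by the RefSeq accession in each identifier. All 7 had a probe set, 1 each, among the 927 genes that could be named in a table of 1259 probe sets. RKO C2 F3, selected by FACS from RKO C2 for low levels of the urokinase receptor u-PAR, was compared with RKO C2, a clonal population of the line. F3 is labelled clonal in its sample titles but not in the study's design text, and no treatment is stated for either. Each was hybridised to 3 arrays, and the study asked which glycosylation enzyme is deficient where u-PAR does not mature fully.

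UDP-sugars are the activated donors from which glycosyltransferases build glycans. UDP-glucose is made from glucose-1-phosphate and is the common parent. The Leloir pathway of galactose salvage gives UDP-galactose, oxidation of UDP-glucose gives UDP-glucuronate, and decarboxylation of that gives UDP-xylose. UDP-galactose serves N-glycans, O-glycans and glycolipids. UDP-glucuronate and UDP-xylose serve proteoglycans and the matriglycan of dystroglycan.

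Values are RMA log2 expression, for which 1 unit is a 2-fold difference in signal. Levels of different probe sets cannot be set against each other on this scale. Where a level is placed below the table's median or lower quartile, this is a position on the scale and not an amount of RNA. Array medians lay between 5.48 and 5.51, any pair of arrays had r between 0.9981 and 0.9992 across probe sets, and the median SD within a population was 0.083. The number of arrays limits the precision, and p-values measure the spread between these arrays, which the labels do not tie to separate cultures. Of the epithelial marker list, 5 of 14 genes were measured, and the defining keratins and EPCAM were not analysed here. CD44, which is not restricted to epithelial cells, was at 8.05 to 8.56 and MUC1 at 7.05 to 7.17 over the 6 arrays. MUC13 (4.05 to 4.34), LGALS4 (4.52 to 4.81) and MUC2 (5.05 to 5.20) lay below the table's median level of 5.50. The 20 leukocyte genes measured, of 23 listed, summed to 79.1 to 80.5 in F3 and 79.7 to 80.0 in C2. The 12 fibroblast and endothelial genes, of 15, summed to 49.5 to 50.3 in F3 and 49.9 to 50.1 in C2. Such sums let opposite changes cancel. Limma called 0 genes of either list. Unadjusted limma p was under 0.05 for 3 of the 20 and 1 of the 12, against 5.40% of the table. Without overlap, 3 of the 20 were higher and 1 lower in F3, and 1 of the 12 was higher, against 10.3% of the table in either direction. The table has no detection call, so no marker could be called absent.

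The promoter sequences of 4 genes are shown, as the 250 bases before the annotated start (RefSeq, GRCh38.p14, 5′ to 3′). GALK1 and GALK2 encode homologous sugar kinases, PGM1 was the one gene whose F3 and C2 arrays did not overlap, and UGDH makes UDP-glucuronate. Capitals mark the GC box, GGGCGG on either strand.
GALK1 (chr17:75765193-75765442, minus strand): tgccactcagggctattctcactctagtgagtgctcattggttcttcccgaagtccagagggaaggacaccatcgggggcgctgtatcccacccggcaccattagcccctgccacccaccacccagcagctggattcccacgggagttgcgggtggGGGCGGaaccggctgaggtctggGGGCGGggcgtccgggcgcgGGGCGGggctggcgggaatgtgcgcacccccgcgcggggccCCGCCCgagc
GALK2 (chr15:49155524-49155773, plus strand): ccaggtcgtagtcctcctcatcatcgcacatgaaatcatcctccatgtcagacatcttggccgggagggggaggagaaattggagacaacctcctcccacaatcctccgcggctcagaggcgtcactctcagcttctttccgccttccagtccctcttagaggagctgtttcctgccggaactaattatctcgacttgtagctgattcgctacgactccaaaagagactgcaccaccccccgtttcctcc
PGM1 (chr1:63593161-63593410, plus strand): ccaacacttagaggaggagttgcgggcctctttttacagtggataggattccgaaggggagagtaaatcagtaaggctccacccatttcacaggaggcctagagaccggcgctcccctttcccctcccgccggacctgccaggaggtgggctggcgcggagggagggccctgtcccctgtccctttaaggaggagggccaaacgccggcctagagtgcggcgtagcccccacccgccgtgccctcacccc
UGDH (chr4:39527440-39527689, minus strand): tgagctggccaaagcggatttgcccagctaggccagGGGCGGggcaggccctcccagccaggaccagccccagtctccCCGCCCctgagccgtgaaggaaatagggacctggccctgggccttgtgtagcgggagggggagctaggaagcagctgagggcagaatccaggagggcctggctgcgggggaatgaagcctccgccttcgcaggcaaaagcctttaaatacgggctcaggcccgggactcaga

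All 7 promoters were found in the RefSeq table, and 5 of the 7 hold a GC box, against 41.7% of 24885 promoters of the same length. GALK1 and UXS1 have 4 each, GALT and UGDH 2 each, UGP2 1, and GALK2 and PGM1 have 0. The CCAAT box (CCAAT, both strands) occurs in 4 of the 7, namely GALK1, GALT, GALK2 and UGP2, against 33.4% of all promoters. TATAAA on either strand occurs in 0 of the 7, against 11.4%. GALT alone of the 7 holds the E-box CACGTG (6.44% of all promoters) and the antioxidant response core TGACNNNGC (11.2%). These searches are independent, so the letters of one motif may overlap another. GC content runs from 54.8% in GALK2 to 77.2% in UXS1, against a median of 57.6%. A match describes letters in this window and not a binding site.

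None of the 7 genes differed between F3 and C2 at a limma adjusted p under 0.05 over all 1259 probe sets, where 1 probe set, or 0.0794%, was called. That probe set belongs to PIGB, a mannosyltransferase of the GPI anchor, lower in F3 by a log2 change of -0.87 (limma adjusted p = 0.013, and 0.057 to 0.155 without F3 replicate 1, C2 replicate 2, C2 replicate 3 or both arrays of number 2). In such bulk RNA, a smaller share of cells with a transcript and less of it per cell cannot be told apart. None of the 7 reached an unadjusted limma p under 0.05 either, against 5.40% of the table. Their log2 changes, F3 minus C2, ran from -0.13 for GALK2 to 0.07 for UGP2. The median was -0.0033 over the 7 and -0.0064 over all probe sets, and 4 of the 7 were negative, against 54.6% of the table. Absolute changes had a median of 0.063 over the 7 and 0.047 over the table. The widest reach of any of the 7 intervals (95%, each for its own gene) was a 1.23-fold change in signal, for GALK2. RMA shrinks differences at the low level of GALK2, so its RNA is not bounded by this value.

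**Figure D1:**
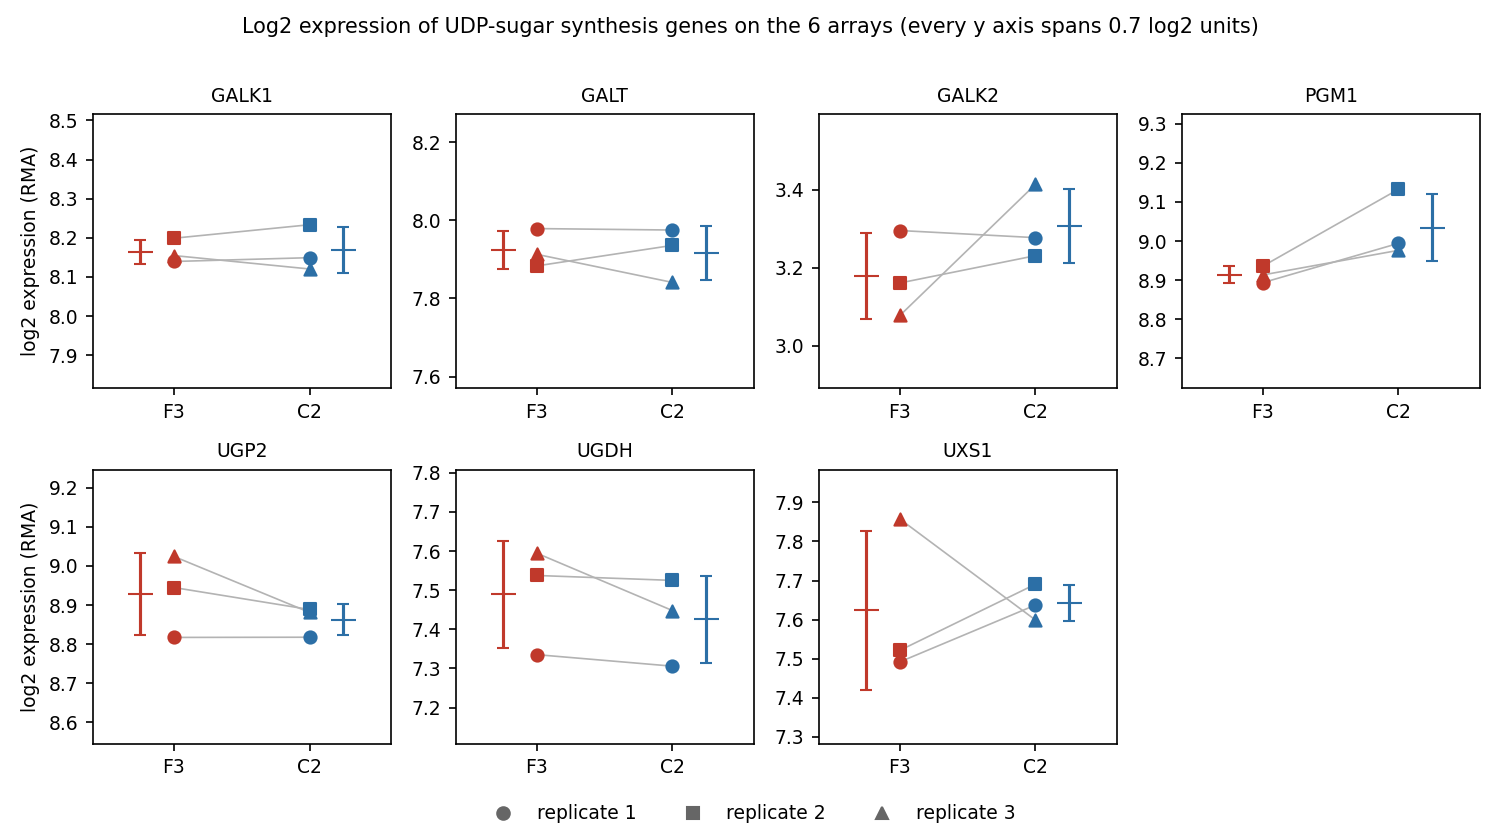
Log2 expression (RMA, y axis) of the 7 genes on each array, F3 in red and C2 in blue. Grey lines join arrays of the same replicate number, and bars give the mean and SD of 3 arrays. PGM1 is the one panel in which the F3 points lie wholly below the C2 points, and F3 replicate 3 lies apart from the other F3 arrays for UXS1.

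The Leloir enzymes salvage galactose. GALK1, the galactokinase that makes galactose-1-phosphate, had log2 levels of 8.14, 8.20 and 8.15 in F3 replicates 1, 2 and 3, against 8.15, 8.23 and 8.12 in C2. The groups overlapped, and replicate 2 was the highest array in both. Its change was -0.0033 (SE 0.05, 95% interval -0.13 to 0.12, limma adjusted p = 0.998). The sign of so small a value turned without F3 replicate 1, F3 replicate 3 or C2 replicate 2, and after median centring (0.012), quantile normalization (0.013) or array weighting (0.013). GALT exchanges the phosphorylated galactose with UDP-glucose to give UDP-galactose, and its deficiency in people is classic galactosaemia. GALT levels were 7.98, 7.88 and 7.91 in F3, against 7.98, 7.94 and 7.84 in C2. These overlapped, with replicate 1 the highest in both populations. GALT had a change of 0.0077 (SE 0.06, 95% interval -0.12 to 0.14, limma adjusted p = 0.998), which turned negative without F3 replicate 1 or C2 replicate 3. GALK1 and GALT had the smallest absolute changes of the 7, at the 4.37th and 10.3rd percentile of the table.

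GALK2 is a homologue of GALK1 that acts mainly on N-acetylgalactosamine. Its levels were 3.30, 3.16 and 3.08 in F3, against 3.28, 3.23 and 3.41 in C2. All lie below 3.80, the lower quartile of the table, where RMA shrinks differences. F3 replicate 1 lay above C2 replicates 1 and 2, so the groups overlapped, and most of the difference came from replicate 3, at -0.34, against 0.02 and -0.07 for replicates 1 and 2. The change was -0.13 (SE 0.07, 95% interval -0.30 to 0.04, limma adjusted p = 0.966). Leaving out 1 array in turn gave -0.19 without F3 replicate 1, where the unadjusted limma p was 0.037 (adjusted 0.885), to -0.08 without C2 replicate 3.

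PGM1 interconverts glucose-6-phosphate and glucose-1-phosphate, and so links glycolysis, glycogen and UDP-sugar synthesis. Its inherited loss in people is a congenital disorder of glycosylation. PGM1 levels were 8.89, 8.94 and 8.91 in F3, against 8.99, 9.13 and 8.98 in C2. All 3 F3 arrays lay below all 3 C2 arrays, as for 82 of the 1259 probe sets (6.51%; 10.3% in either direction), and PGM1 was 1 of 7 here. The means were 8.91 ± 0.02 in F3 and 9.03 ± 0.09 in C2 (SD, n = 3 each), and the differences within same-numbered arrays were -0.10, -0.20 and -0.06. The log2 change was -0.12 (SE 0.06, 95% interval -0.25 to 0.01), a ratio of 0.920, with a limma unadjusted p of 0.074 and an adjusted p of 0.966. Blocking on replicate number gave an adjusted limma p of 0.663. C2 replicate 2 was the highest array, and without it the change was -0.07.

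UGP2 joins glucose-1-phosphate to UTP and so makes UDP-glucose. Its levels were 8.82, 8.94 and 9.02 in F3, against 8.82, 8.89 and 8.88 in C2. The groups overlapped at replicate 1, the lowest array of each, which differed by -0.0005. UGP2 had a log2 change of 0.07 (SE 0.06, 95% interval -0.08 to 0.21, limma adjusted p = 0.974), which was 0.12 without F3 replicate 1 and 0.02 without F3 replicate 3.

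UGDH oxidises UDP-glucose to UDP-glucuronate, the donor for hyaluronan, heparan sulfate and chondroitin sulfate. UGDH levels were 7.34, 7.54 and 7.59 in F3, against 7.31, 7.52 and 7.45 in C2. Replicate 1 was the lowest array in both populations, and the groups overlapped. The paired differences were 0.03, 0.01 and 0.15, all positive, and UGDH was the only one of the 7 higher in F3 in every pair. The change was 0.06 (SE 0.08, 95% interval -0.13 to 0.26, limma adjusted p = 0.998), and the block lowered the SE to 0.05 with an adjusted p of 0.808. Leaving out 1 array moved it between 0.0026 (C2 replicate 1) and 0.14 (F3 replicate 1).

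UXS1, in the Golgi and ER, decarboxylates UDP-glucuronate to UDP-xylose, the donor for the first sugar of glycosaminoglycan chains. Its levels were 7.49, 7.52 and 7.86 in F3, against 7.64, 7.69 and 7.60 in C2. F3 replicate 3 was the highest of the 6 arrays, while F3 replicates 1 and 2 lay below all C2 arrays. The SD was 0.203 in F3 and 0.046 in C2 (n = 3 each). UXS1 had a change of -0.02 (SE 0.10, 95% interval -0.24 to 0.20, limma adjusted p = 0.998). It was -0.14 without F3 replicate 3 and 0.05 without F3 replicate 1, and was also positive without F3 replicate 2 or C2 replicate 2, so single arrays decide the sign.

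**Figure D2:**
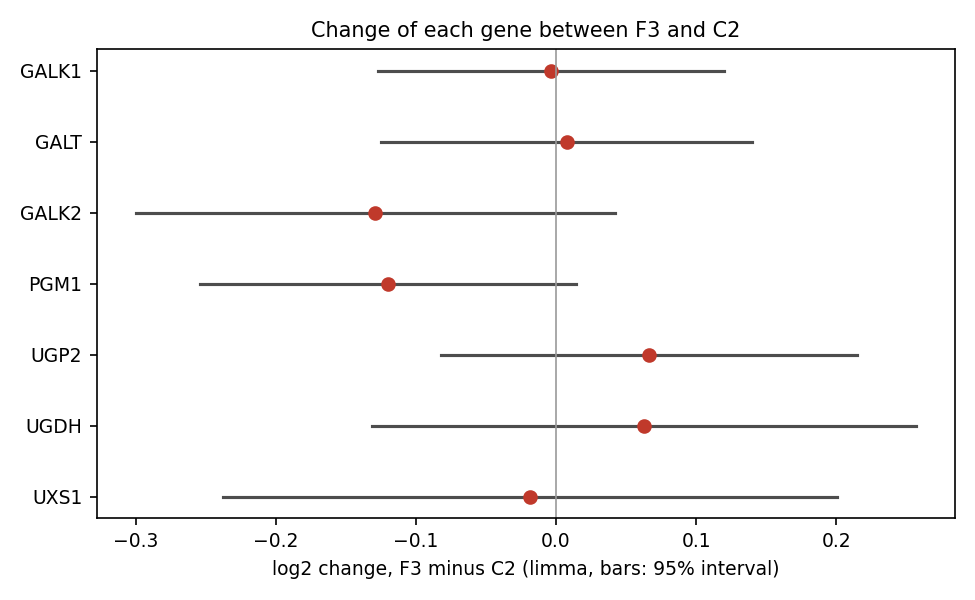
Log2 change, F3 minus C2 (x axis), of the 7 genes, with 95% intervals from limma without adjustment for the number of probe sets. All 7 intervals contain 0, and that of PGM1 ends at 0.01.

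The same replicate number was the highest or the lowest array of both populations for GALK1, GALT, PGM1, UGP2 and UGDH. Among 3 arrays a shared extreme is common without any pairing, and its share over all probe sets was not counted. The means of same-numbered arrays spanned 0.21 for UGDH, 0.16 for UXS1, 0.14 for UGP2 and 0.10 for GALT. For 5 of the 7 this span exceeded the absolute change between F3 and C2, the exceptions being GALK2 and PGM1. A range over 3 means tends to be wider than 1 difference, and the share over all probe sets was not counted. For UXS1 the span rests on F3 replicate 3, since C2 replicate 3 was the lowest C2 array. Titles of same-numbered arrays also share a suffix across F3 and C2, which the labels do not explain. The titles call the number a replicate, without saying what was repeated.

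**Figure D3:**
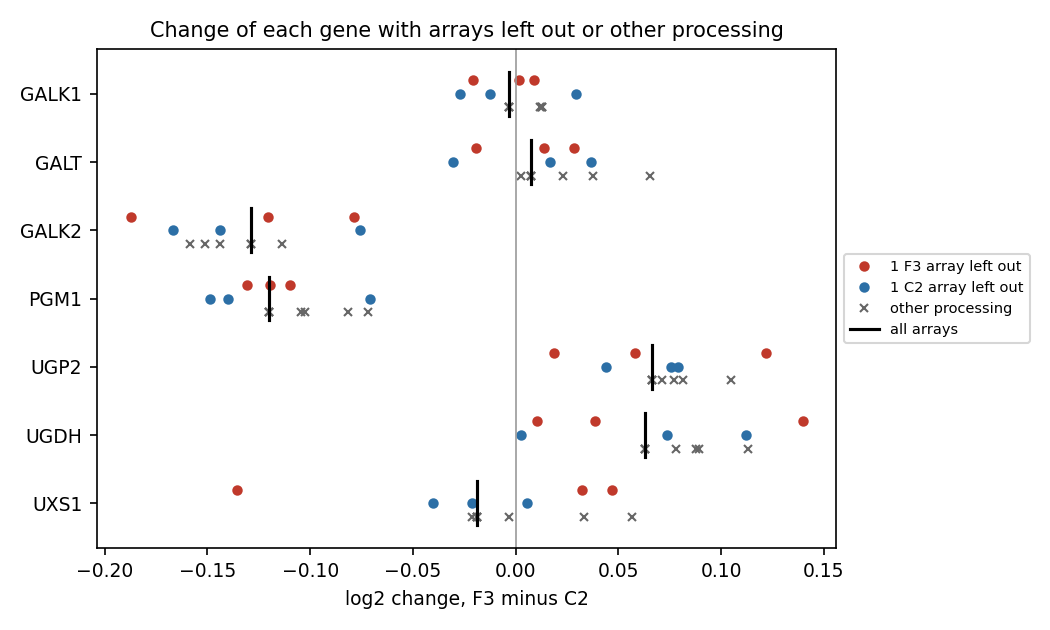
Log2 change, F3 minus C2 (x axis), of each of the 7 genes with all arrays (black bar), with 1 F3 array left out (red), with 1 C2 array left out (blue) and under the other processing settings (grey crosses). GALK2 and PGM1 stay below 0, UGP2 and UGDH stay above 0, and GALK1, GALT and UXS1 have points on both sides.

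For each gene the named probe set with the most similar course over the 6 arrays was found, by the root mean square difference of log2 values centred on their own mean. For PGM1 it was GUSB, lysosomal beta-glucuronidase, at a difference of 0.024, against an SD of PGM1 itself over the arrays of 0.079. UGDH was nearest to the sialyltransferase gene ST3GAL2 (0.029), and GALK2 to GALC, lysosomal galactosylceramidase (0.042). The nearest were IL36RN for GALK1 (0.015), PLA2R1 for GALT (0.026), IL2RG for UGP2 (0.018) and MBL2 for UXS1 (0.051). This measure favours probe sets that vary little. It returns a nearest gene for any probe set, and how near one would lie by chance was not tested.

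The remaining enzymes of the route were read from a list in which 2 of 10 were measured, and 0 passed in either direction. HK1, the hexokinase that makes glucose-6-phosphate, was at -0.13, and GPI, the glycolytic isomerase of glucose-6-phosphate, at -0.08. Leaving out C2 replicate 2, the highest array for both, gave -0.045 for HK1 and 0.011 for GPI. The median of both was -0.10, against -0.0064 over all probe sets.

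The genes that carry or use these UDP-sugars held no call either. Of 5 Golgi and ER transporters, all measured, 0 passed, with a median of -0.02 that was -0.11 without F3 replicate 3 or C2 replicate 1 and 0.05 without F3 replicate 1. SLC35B4, which carries UDP-xylose and UDP-N-acetylglucosamine, was at 6.93, 6.90 and 6.94 in F3, against 7.09, 7.27 and 7.10 in C2, with no overlap and a change of -0.23 (limma adjusted p = 0.731). SLC35D1, which carries UDP-glucuronate and UDP-N-acetylgalactosamine, was at 0.12, also without overlap. The UDP-N-acetylglucosamine transporter gene SLC35A3 was at -0.10, or -0.035 without F3 replicate 2 and -0.037 without C2 replicate 3. List genes were named by smallest p, which favours groups that do not overlap, as 10.3% of all probe sets did not. Among 15 of 17 UDP-galactose users, 0 passed, 9 changes were negative and the median was -0.0080. The smallest p in that list belonged to B3GALT1 (0.13), B4GALT3 (-0.08) and B3GALT2 (-0.10), all galactosyltransferases. Each of them depended on single arrays. B3GALT1 was at 0.062 without F3 replicate 1. B4GALT3 was at -0.029 without C2 replicate 2 and at -0.12 without C2 replicate 3. B3GALT2 was at -0.021 without C2 replicate 3 and at -0.19 without C2 replicate 1. B3GALT1 and B3GALT2 had mean log2 levels of 3.35 and 2.73, below the table's lower quartile of 3.80, where RMA shrinks differences.

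Of 12 UDP-glucose users 3 were measured and 0 passed. UGGT2, a homologue of the ER folding sensor that reglucosylates glycoproteins, was at -0.22 (limma adjusted p = 0.731), without overlap of the groups. ALG5, which makes dolichol-phosphate-glucose, was at -0.05, and UGCG, glucosylceramide synthase, at -0.03. Of 28 UDP-glucuronate users 20 were measured, 0 passed and 13 were negative, with a median of -0.02 that was -0.07 without C2 replicate 1. HAS2, a hyaluronan synthase, had levels of 5.41, 4.72 and 5.44 in F3, against 4.52, 4.51 and 4.62 in C2. The groups did not overlap, and F3 replicate 2 lay nearest to C2. The HAS2 change was 0.64 (limma adjusted p = 0.731). It was 0.88 without F3 replicate 2, where the limma adjusted p was 0.0038. Without F3 replicate 1 or 3 it was 0.53 and 0.51 (limma adjusted p = 0.881 and 0.852). HAS2 was called in 2 of 12 alternatives, both without F3 replicate 2. Its mean log2 level of 4.87 was under the cut of 5, so it had no value without dim probe sets. B3GAT2, a glucuronyltransferase, was at -0.20, and B4GAT1, which starts matriglycan by adding glucuronate, at -0.15, or -0.091 without C2 replicate 2. For both, the F3 arrays lay below all C2 arrays. B3GAT2 had a mean log2 level of 3.31, below the table's lower quartile of 3.80, where RMA shrinks differences. Of 7 UDP-xylose users 3 were measured and 0 passed, with a median of -0.02 that ran from -0.07 without C2 replicate 1 to 0.03 without C2 replicate 3. XYLT2 and XYLT1, which add xylose to proteoglycan cores, were at -0.10 and -0.02, and the matriglycan polymerase gene LARGE2, which also uses UDP-glucuronate, at 0.03, or 0.014 without C2 replicate 1. Without C2 replicate 2 XYLT2 was at -0.037. XYLT1, at a mean log2 level of 2.64, also lay below the lower quartile of the table.

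**Figure D4:**
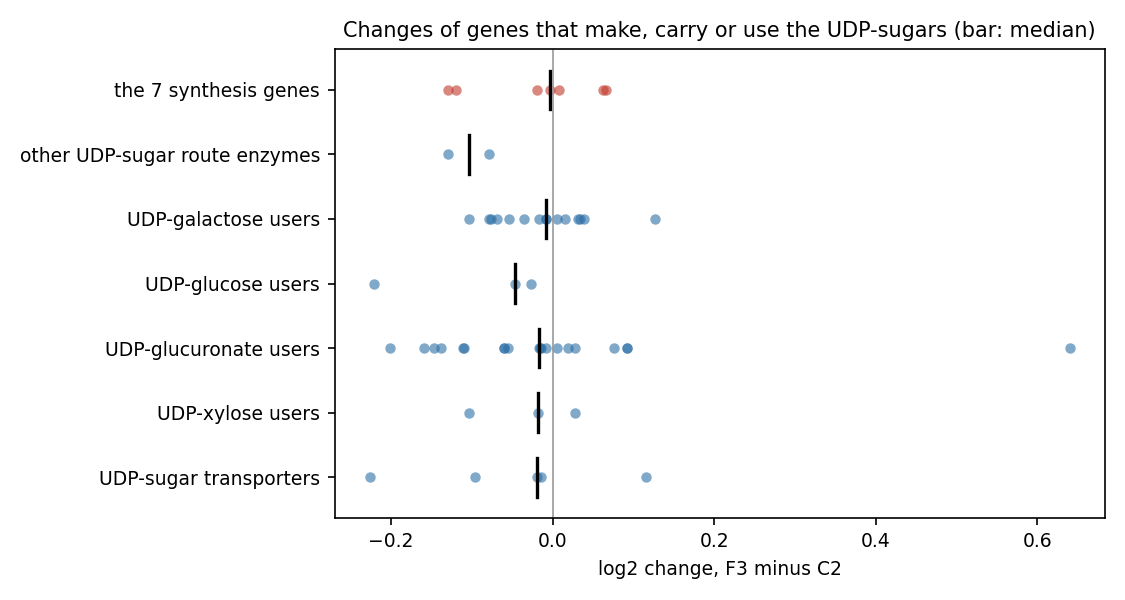
Log2 change, F3 minus C2 (x axis), of the 7 synthesis genes (red) and of the measured genes of 6 lists (blue), 1 point a gene, with the median of each as a black bar. The point at 0.64 is HAS2, and none of the points passed a limma adjusted p of 0.05.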

How the data were processed

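Trizol-extracted total RNA was made into biotinylated cRNA for Affymetrix arrays, per the labels' protocols. The authors deposited log2 expression values made with RMA (background correction, quantile normalization and probe summary), per the submitters' processing notes. The sources used here give neither its version nor the genome build. RMA makes arrays alike in distribution and shrinks differences of dim probe sets. Values run from 2.08 to 14.1 without detection calls.

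Probe sets were named by RefSeq accession without version (1043 of 1259 matched 1 symbol each). Groups were taken from sample titles. F3 and C2 (3 arrays each) were compared in limma 3.58.1 (R 4.3.3), two-sided, with p-values adjusted by Benjamini-Hochberg across the 1259 probe sets (threshold 0.05). The script was tested on simulated data. For genes of several probe sets in the lists, the one with the highest mean was used.

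Both populations carry replicate numbers 1, 2 and 3, and same-numbered titles share an unexplained suffix. Same-numbered arrays deviated together from their group means (r = 0.52, 0.18 and 0.26 over probe sets). Arrays of different number had r from -0.38 to 0.15. Deviations of 3 arrays from their own mean sum to 0, so these r values depend on one another. With C2 replicate 2, F3 replicate 3 (0.15) had nearly the same r as F3 replicate 2 (0.18). The reported fit has no block, so its SEs, intervals and p-values treat the arrays as unpaired. Differences by number and, for PGM1 and UGDH, blocked values are given beside it. At most 0.477% of values were identical between arrays.

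The genes, lists and tests were chosen with earlier results of these data known. Named were the 7 genes, up to 3 genes of smallest p in each list, the most similar probe set of each gene and any gene past the threshold. Some genes that this rule or the lists hold are not reported here. Alternatives were a block on replicate number, centring on array medians, a second quantile normalization, leaving out probe sets with a mean log2 value of 5 or less, array weights, robust eBayes with an intensity trend, each array left out, both arrays of number 2 left out, a threshold of 0.10 and averaging of probe sets by gene.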

Additional observations from a re-analysis of the deposited data

How the results depend on the processing

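The number of the 7 genes past an adjusted p of 0.05 in limma was 0 with all arrays and under every alternative run, and their smallest adjusted p was 0.663, for PGM1 with the replicate block. GALK2, PGM1, UGP2 and UGDH kept their sign in every alternative run, GALK2 having no value without dim probe sets. GALK1, GALT and UXS1, all near 0, changed sign, and the cause was not tested. GALK1 was at 0.012 with median centring, 0.013 with quantile normalization, 0.013 with array weights and 0.012 without both arrays of number 2, and between -0.027 and 0.030 when single arrays were left out. GALT ran from -0.030 to 0.037 with 1 array left out. UXS1 was at 0.033 with quantile normalization and 0.056 without both arrays of number 2, and ran from -0.14 to 0.047 with 1 array left out. Among genes outside the 7, single arrays left out gave -0.13 to 0.011 for GPI, -0.087 to 0.0066 for ALG5, -0.099 to 0.024 for UGCG and -0.071 to 0.045 for XYLT1, and without both arrays of number 2 ALG5 was at 0.0011 and UGCG at 0.037. The count over all probe sets was 1 with all arrays, 2 with the replicate block, 2 at an adjusted p under 0.10 and 0 to 2 with 1 array left out. HAS2 was the 1 UDP-glucuronate user called without both arrays of number 2, and the count for that list was 0 to 1 with 1 array left out. With 1 array left out, the median ran from -0.11 to 0.050 for the transporters, from -0.069 to -0.0076 for the UDP-glucuronate users and from -0.071 to 0.027 for the UDP-xylose users. The block changed no call among the 7 genes or the lists. Each of the 7 has 1 probe set, so averaging probe sets changes nothing for them. Centring or quantile normalization left the median of all probe sets at 0.0090 and 0.0030.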

Other observations

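Other nucleotide sugar synthesis, which makes the donors of N-acetylglucosamine, sialic acid, mannose and fucose, was measured for 15 of 19 listed genes. Limma called 0 of them. The unadjusted limma p was under 0.05 for 2 of the 15, against 5.40% of the table. Of the changes, 8 were negative, with a median over the 15 of -0.0056. GMDS, the dehydratase that starts GDP-fucose synthesis, was at 7.98, 7.94 and 7.89 in F3, against 8.16, 8.15 and 8.01 in C2. Its log2 change was -0.17 (limma adjusted p = 0.837). It was the 1 gene of the 15 without overlap, against 10.3% of all probe sets. Genes were again named by smallest p, which favours groups that do not overlap. UAP1, which makes UDP-N-acetylglucosamine, was at 11.3, 11.4 and 11.5 in F3, against 11.2, 11.2 and 11.3 in C2, and its change was 0.17 (limma adjusted p = 0.903), or 0.11 without F3 replicate 3. PMM1, a phosphomannomutase, had a change of -0.14, and its groups overlapped. The PMM1 change was -0.093 without F3 replicate 2 and -0.19 without F3 replicate 1.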
